A study of Mus musculus with 8 samples.

Results

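The synaptic vesicle and release machinery is described here in the embryonic spinal cord of mice with and without the transcription factor NFIX. It was taken as 49 genes, chosen by symbol for their known roles, of 30176 genes that had a row of their own on the array. A gene was read from the row that carried its symbol and no other, and each of the 49 had exactly 1 such row. The genes fall into 7 roles: 7 SNARE proteins and proteins that handle them, 10 synaptotagmins and Doc2 proteins, 7 complexins and priming factors, 9 genes of the active zone scaffold and the Rab3 GTPases, 10 vesicle membrane proteins and synapsins, 2 synucleins and 4 genes of endocytosis.

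Whole spinal cords of C57Bl/6J mouse embryos at E14.5 (embryonic day) were profiled on 8 arrays, 4 from Nfix-/- embryos and 4 from Nfix+/+ embryos, labelled as biological replicates 1 to 4 of each genotype. The embryos came from crosses of heterozygous parents, the wild-type mice were littermates, and the null allele is carried in every cell, so a change in the cord need not arise in the cells that are measured. Sex, litter and the level at which each cord was cut are not given in the sources used here, and p-values measure the spread between these arrays. In whole tissue, fewer cells of a type and less RNA per cell cannot be told apart.

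Neurons release transmitter when vesicles that have docked at the presynaptic membrane fuse with it in response to calcium. A vesicle SNARE protein of the synaptobrevin family zips together with syntaxin and SNAP-25 of the plasma membrane, priming proteins of the Munc13 and CAPS families prepare this step, complexins hold and promote it, and synaptotagmins and Doc2 proteins couple it to calcium. Scaffolds such as RIM, Bassoon, Piccolo and ELKS place vesicles at release sites with the help of Rab3, synapsins hold a reserve of vesicles, and dynamin and amphiphysin retrieve membrane afterwards. Many of these genes are already transcribed in young neurons of the spinal cord while axons are still growing.

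NFI proteins such as NFIX bind the short motif TTGGC, alone or as a palindrome with its reverse complement after a spacer of any 5 bases. Promoters are shown because the altered gene encodes such a protein. Those of 2 genes that rose are given, Cplx1 and Syn2, each with a RefSeq start site that is the gene's own first base. Each line holds the 250 bases before the start in the direction of transcription, in GRCm38.p6, with capitals marking that motif on either strand. The Cplx1 window is chr5:108550028-108550277 on the minus strand, with 64.8% G and C, and the Syn2 window is chr6:115134652-115134901 on the plus strand, with 61.2%.
Cplx1: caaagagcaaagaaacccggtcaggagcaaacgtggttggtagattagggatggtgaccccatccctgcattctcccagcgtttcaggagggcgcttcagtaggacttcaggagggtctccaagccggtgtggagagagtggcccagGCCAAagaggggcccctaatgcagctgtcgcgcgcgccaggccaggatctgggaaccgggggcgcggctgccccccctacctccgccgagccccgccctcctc
Syn2: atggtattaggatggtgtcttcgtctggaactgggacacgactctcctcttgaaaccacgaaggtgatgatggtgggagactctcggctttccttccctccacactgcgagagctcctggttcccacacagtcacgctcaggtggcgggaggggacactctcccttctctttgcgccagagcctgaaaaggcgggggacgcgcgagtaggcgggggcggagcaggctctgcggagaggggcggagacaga
The Cplx1 window holds 1 copy of the motif, on the strand opposite to the gene, whose most upstream base lies at -103 from the start, and the Syn2 window holds none. RefSeq gives Syn2 another start within the gene, at 115238994, whose window holds 1 copy on the gene's strand with its most upstream base at -114. RefSeq gave 48 windows of 300 bases, 250 before and 50 after a start, for 38 of the 49 genes. The motif lay in 27 of these 48 windows (56.2%), beside 46.7% of 32851 windows of the same length over all genes. It lay in 4 of 8 windows of genes that rose and in 23 of 40 windows of genes that did not pass the test. The palindrome was in none of the 48 windows and in 12 of all windows. A match is a run of letters and not a measured binding site.

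Nfix itself checks the labels. Its log2 values were 8.90, 8.88, 8.83 and 8.81 in the Nfix-/- arrays and 9.36, 9.18, 9.25 and 9.19 in the Nfix+/+ arrays, a difference of -0.39 (SE 0.0544, adjusted p = 0.00240 from limma). All differences are Nfix-/- minus Nfix+/+ on the log2 scale, and with the study's fold cut-off added to the adjusted p, more rows of the array were lower (829) than higher (522). The study states nearly the same counts at those thresholds with the directions exchanged, so that more genes were up than down. It describes a one-way ANOVA and fewer mice per genotype than the arrays labelled here. Why the directions are exchanged was not tested. Where the probes lie relative to the deletion is not known here, and what signal is left does not measure NFIX function. Nfix+/+ replicate 2 and Nfix-/- replicate 4 stood apart within their genotypes, with median negative controls of 4.88 and 4.60, where the other arrays had 4.33 to 4.49. Without both, 9 of the 10 rises described below still passed, all but that of Napb (adjusted p = 0.0765), and the median difference of the 49 genes was 0.09.

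Of the 49 genes, 10 rose in Nfix-/- spinal cord, none fell and 39 did not pass the test (limma over 65956 rows, Benjamini-Hochberg adjusted p under 0.05). The 10 genes are 20.4% of the members, where 11.5% of all rows were higher and 10.5% were lower. Of the 11778 rows above the 95th percentile of the array's negative controls on at least 4 arrays, the brightness at which most members lie, 14.1% were higher and 0.416% were lower. At an unadjusted p under 0.05 there were 15 higher and 0 lower, where 20.2% of all rows and 30.3% of these bright rows were higher, and 16.5% and 1.15% were lower. No member reached the fold change of 1.5 that the study required, as 0.791% of all rows did upwards and 1.26% downwards, and the largest, Cplx1, was at 1.24-fold.

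Almost every member leaned the same way. The difference was positive in 48 of 49 genes, with a median of 0.08 and a range of -0.01 to 0.32. Bright rows as a whole leaned that way too, since the median difference was 0.09 over the 11778 bright rows and 0.02 over all rows. Each member was therefore set beside its equally bright rows, the 500 rows on each side of it in mean log2 value, whose median difference ran from 0.01 to 0.12 and was 0.09 at the median member. By that measure 22 members lay above their equally bright rows and 27 below, and the median member lay at -0.01 from them. The 4 Nfix-/- arrays were all above the 4 Nfix+/+ arrays in 16 members, beside 16.1% of all rows and 28.1% of bright rows.

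**Figure D1:**
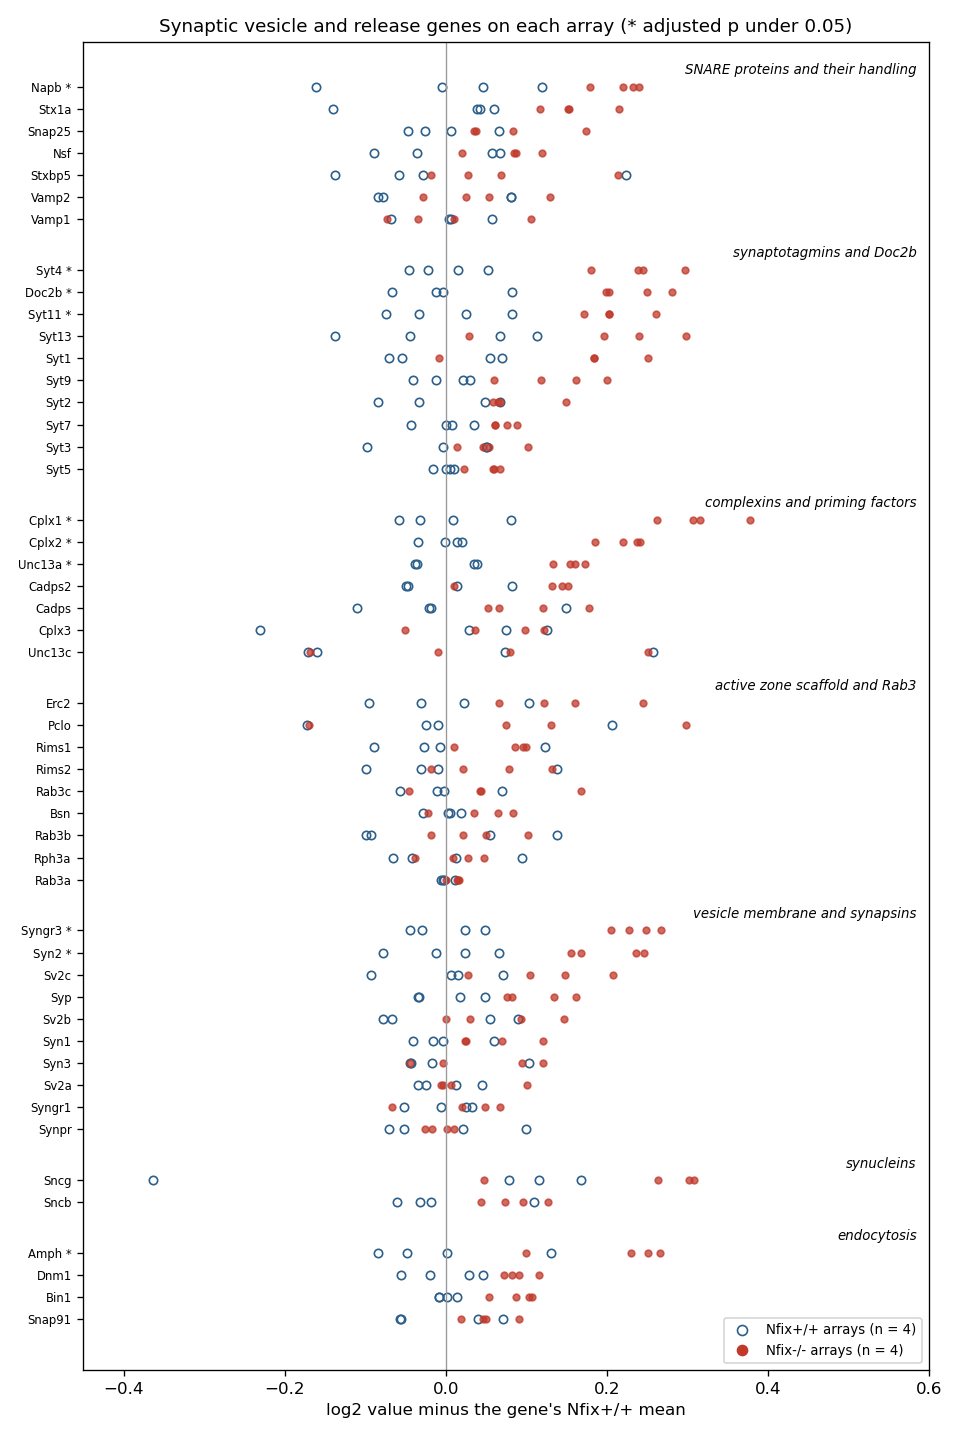
Log2 value of each of the 49 genes on each array, minus the mean of that gene's 4 Nfix+/+ arrays (x axis, log2 units), with genes grouped by role and ordered by difference within a role. Open circles are Nfix+/+ arrays, filled circles are Nfix-/- arrays, and an asterisk marks the 10 genes past the adjusted p, among which only Amph has overlapping groups.

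**Figure D2:**
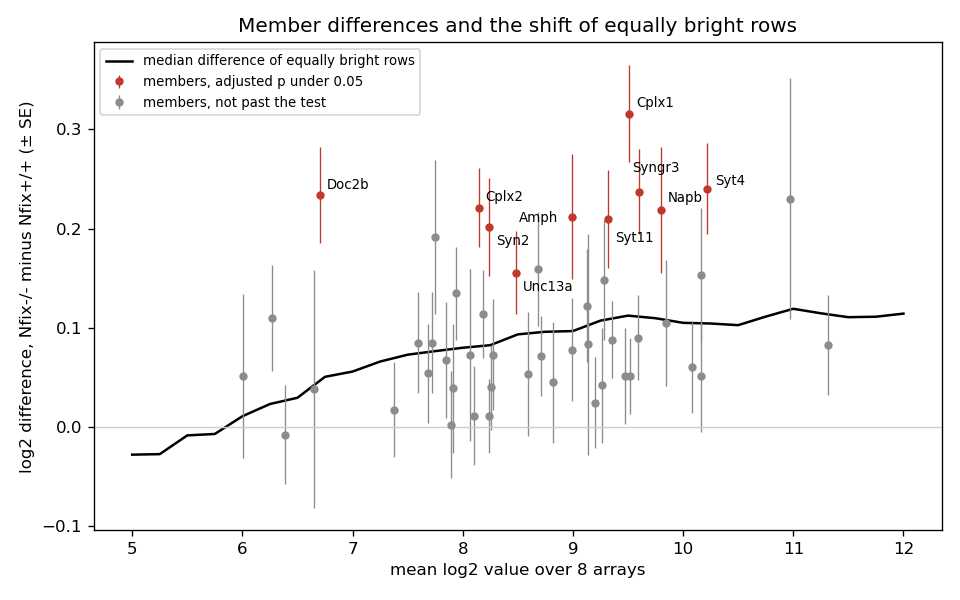
Difference between genotypes (y axis, log2, Nfix-/- minus Nfix+/+, bars are 1 SE from limma) against the mean log2 value over 8 arrays (x axis) for the 49 genes. The black line is the median difference of equally bright rows, which climbs with brightness; 22 genes lie above it and 27 below.

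Among the synaptotagmins and Doc2b, the family of the calcium sensors, 3 genes of 10 rose, Syt4, Doc2b and Syt11. The 10 differences had a median of 0.14, and 7 of the 10 lay above their equally bright rows. Beside this count and those of the roles below, 11.5% of all rows and 14.1% of bright rows were higher. Each role holds few genes, and the roles were not compared by a test. Syt4, a synaptotagmin found on dense-core vesicles and carried on chromosome 18, read 10.28, 10.34, 10.39 and 10.34 in the Nfix-/- arrays and 10.11, 10.15, 10.07 and 10.05 in the Nfix+/+ arrays. The groups did not overlap, and the rise of 0.24 (SE 0.0460, adjusted p = 0.00841 from limma) lay 0.14 above that of equally bright rows. Syt11 (chr3:88744699-88775159), a synaptotagmin that does not bind calcium and acts in membrane retrieval, read 9.39, 9.48, 9.42 and 9.42 in Nfix-/- and 9.14, 9.24, 9.18 and 9.30 in Nfix+/+. It rose by 0.21 (SE 0.0496, adjusted p = 0.0193), again without overlap. Without any 1 of Nfix-/- replicate 2, Nfix+/+ replicate 1 and Nfix+/+ replicate 3 the adjusted p of Syt11 was 0.0563, 0.0518 and 0.0533.

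Doc2b (chr11:75768270-75796060), a calcium sensor of spontaneous release, was dimmer than the negative-control 95th percentile on all 8 arrays, a cut of 7.27 to 7.59. Its values were 6.79, 6.83, 6.78 and 6.87 in Nfix-/- and 6.67, 6.58, 6.57 and 6.52 in Nfix+/+. At that cut its level was not told apart from background, although every Nfix-/- array lay above every Nfix+/+ array and the difference was 0.23 (SE 0.0482, adjusted p = 0.0113). Syt1, the main fast calcium sensor of release in the brain, read 10.08, 10.27, 10.27 and 10.34 in Nfix-/- and 10.14, 10.16, 10.03 and 10.02 in Nfix+/+. It overlapped through Nfix-/- replicate 1 and did not pass, at 0.15 (SE 0.0674, adjusted p = 0.139), and it did pass when that array was left out. Syt13, an atypical synaptotagmin, was among the 3 largest differences that did not pass, at 0.19 (SE 0.0776, adjusted p = 0.113), with 7.89, 7.85, 7.95 and 7.68 in Nfix-/- against 7.61, 7.51, 7.72 and 7.76 in Nfix+/+. The other synaptotagmins, Syt2, Syt3, Syt5, Syt7 and Syt9, had differences of 0.05 to 0.13. Those of Syt5, Syt7 and Syt9 came without overlap between genotypes.

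The complexins and priming factors held 3 genes that rose of 7, Cplx1, Cplx2 and Unc13a, at a median difference of 0.11. Cplx1 (chr5:108518554-108550027), the complexin whose promoter is shown above, gave the largest difference of all 49 genes. It read 9.62, 9.67, 9.73 and 9.66 in Nfix-/- and 9.44, 9.30, 9.36 and 9.32 in Nfix+/+, a rise of 0.32 (SE 0.0494, adjusted p = 0.00374 from limma), or 0.20 above equally bright rows. Its paralog Cplx2 (chr13:54301964-54383923) read 8.28, 8.25, 8.27 and 8.22 in Nfix-/- and 8.03, 8.0, 8.05 and 8.05 in Nfix+/+. Both genotypes were tight and well apart, with a rise of 0.22 (SE 0.0401, adjusted p = 0.00683). Cplx3, a complexin best known from ribbon synapses of the retina, was below the negative-control cut on all arrays and differed by 0.05 (SE 0.0831, adjusted p = 0.700).

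Unc13a (chr8:71624125-71671774) encodes Munc13-1, which primes vesicles by acting on syntaxin. Its values were 8.58, 8.56, 8.54 and 8.56 in Nfix-/- and 8.37, 8.44, 8.37 and 8.44 in Nfix+/+, a rise of 0.16 (SE 0.0419, adjusted p = 0.0308). The groups did not overlap, yet with each array left out in turn the adjusted p ran from 0.0352 to 0.0832 and stayed under 0.05 only without Nfix+/+ replicate 2. Cadps, the CAPS priming factor of dense-core vesicles, read 9.86, 9.92, 9.85 and 9.97 in Nfix-/- and 9.78, 9.95, 9.69 and 9.78 in Nfix+/+. Its high Nfix+/+ value was that of replicate 2, and the difference of 0.10 (SE 0.0636, adjusted p = 0.272) was close to the 0.11 of its equally bright rows. Unc13c and Cadps2, below the negative-control cut on all arrays, differed by 0.04 and 0.11 and did not pass.

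In the SNARE group 1 of 7 genes rose, Napb, at a group median of 0.08. Napb (chr2:148693985-148732425) encodes beta-SNAP, the adaptor through which the ATPase NSF takes spent SNARE complexes apart. It read 9.91, 9.92, 9.87 and 9.93 in Nfix-/- and 9.81, 9.53, 9.69 and 9.74 in Nfix+/+, lowest in Nfix+/+ replicate 2, a rise of 0.22 (SE 0.0635, adjusted p = 0.0408). The adjusted p was 0.0508 without that array, and only without Nfix+/+ replicate 1 did it stay under 0.05, at 0.0324. Snap25, the SNARE of the plasma membrane, read 11.31, 11.36, 11.31 and 11.45 in Nfix-/- and 11.34, 11.23, 11.25 and 11.28 in Nfix+/+. The genotypes overlapped, with a difference of 0.08 (SE 0.0506, adjusted p = 0.274) below the 0.12 of equally bright rows. The syntaxin gene Stx1a read 8.75, 8.75, 8.82 and 8.72 in Nfix-/- and 8.66, 8.46, 8.64 and 8.64 in Nfix+/+. Its groups did not overlap, and its difference of 0.16 (SE 0.0571) had an adjusted p of 0.0793. The synaptobrevin genes Vamp1 and Vamp2, Nsf and Stxbp5, which encodes the syntaxin-binding inhibitor tomosyn, differed by 0.00 to 0.08. Vamp1, with the second smallest difference of the 49, read 7.90, 7.86, 8.0 and 7.82 in Nfix-/- and 7.90, 7.95, 7.89 and 7.82 in Nfix+/+ (0.00, SE 0.0540, adjusted p = 0.980).

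Among vesicle membrane proteins and synapsins 2 of 10 genes rose, Syngr3 and Syn2, and the group median was 0.06. Syngr3 (chr17:24685092-24689949), a synaptogyrin that spans the vesicle membrane, read 9.75, 9.71, 9.73 and 9.69 in Nfix-/- and 9.53, 9.45, 9.51 and 9.44 in Nfix+/+. The rise of 0.24 (SE 0.0431, adjusted p = 0.00687) came without overlap and lay 0.13 above equally bright rows. Syngr1, of the same family, differed by 0.02 (SE 0.0476, adjusted p = 0.828). Syn2 (chr6:115134902-115282626), a synapsin, read 8.31, 8.30, 8.38 and 8.39 in Nfix-/- and 8.13, 8.21, 8.06 and 8.17 in Nfix+/+. It rose by 0.20 (SE 0.0492, adjusted p = 0.0217), and the adjusted p was 0.0587 without Nfix-/- replicate 3, 0.0548 without Nfix+/+ replicate 1 and 0.0579 without Nfix+/+ replicate 3. The synapsin gene Syn1 read 10.08, 10.17, 10.08 and 10.12 in Nfix-/- against 10.11, 10.01, 10.04 and 10.05 in Nfix+/+. It overlapped between genotypes and differed by 0.06 (SE 0.0457, adjusted p = 0.381), and Syn3 by 0.04. Synaptophysin, encoded by Syp, differed by 0.11 (SE 0.0445, adjusted p = 0.102) without overlap, and the transporter-like proteins Sv2a, Sv2b and Sv2c by 0.02 to 0.12. Synpr, which encodes synaptoporin, had the only negative difference of the 49, at -0.01 (SE 0.0499, adjusted p = 0.932), with 6.36, 6.37, 6.39 and 6.40 in Nfix-/- and 6.41, 6.49, 6.34 and 6.32 in Nfix+/+, all under the negative-control cut.

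None of the 9 genes of the active zone scaffold and the Rab3 GTPases passed the test, and 1 of 9 did at an unadjusted p under 0.05. They lay low as a group, with a median difference of 0.05, and 8 of 9 were below their equally bright rows. Rab3a, a GTPase of the vesicle surface, read 8.25, 8.24, 8.25 and 8.25 in Nfix-/- and 8.25, 8.23, 8.23 and 8.23 in Nfix+/+, nearly the same on every array. Its difference was 0.01 (SE 0.0375, adjusted p = 0.858). Rab3c read 10.09, 10.18, 10.18 and 10.30 in Nfix-/- and 10.13, 10.21, 10.08 and 10.12 in Nfix+/+, with overlap and a difference of 0.05 (SE 0.0570, adjusted p = 0.556). The RIM genes Rims1 and Rims2, Bsn (Bassoon), Pclo (Piccolo), Rab3b and Rph3a, an effector of Rab3, had differences of 0.01 to 0.08, and Erc2, the ELKS scaffold gene that lay above its equally bright rows, one of 0.15 (SE 0.0605, adjusted p = 0.114).

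Of the endocytosis genes 1 of 4 rose, Amph (chr13:18948142-19154032), which encodes the dynamin-binding protein amphiphysin. It read 8.99, 9.14, 9.15 and 9.12 in Nfix-/- and 8.89, 9.02, 8.84 and 8.80 in Nfix+/+, so that Nfix+/+ replicate 2 lay above Nfix-/- replicate 1. The rise was 0.21 (SE 0.0631, adjusted p = 0.0442), and with each array left out the adjusted p ran from 0.0185 to 0.114 and stayed under 0.05 only without one of those 2 arrays. Dnm1, the dynamin of nerve terminals, read 9.62, 9.66, 9.63 and 9.64 in Nfix-/- and 9.59, 9.58, 9.53 and 9.49 in Nfix+/+. It did not overlap, and its difference of 0.09 (SE 0.0427, adjusted p = 0.164) was below the 0.11 of equally bright rows. Bin1, a relative of amphiphysin, and the clathrin adaptor Snap91 differed by 0.09 and 0.05. The synuclein gene Sncg, known from sensory and motor neurons, had the largest difference that did not pass, with 11.11, 11.16, 10.90 and 11.15 in Nfix-/- and 10.97, 10.49, 10.93 and 11.02 in Nfix+/+. Its difference of 0.23 (SE 0.121, adjusted p = 0.208) rested on a wide spread, lowest in Nfix+/+ replicate 2, and was 0.11 without that array. Sncb differed by 0.09.

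A further 56 genes of the presynaptic terminal are set beside the 49. They were listed by role, but with earlier results of these data known, so they are no independent check. Of the 53 that were measured, 6 rose and none fell (11.3%, where 11.5% of all rows and 14.1% of bright rows were higher). At an unadjusted p under 0.05 from limma, 16 of the 53 were higher and 0 lower. At that threshold 20.2% of all rows and 30.3% of bright rows were higher, and 16.5% and 1.15% were lower. Their median difference was 0.10, and 31 of 53 lay above their equally bright rows. The 6 were the SNARE genes Vamp3, at 0.27 (SE 0.0469, adjusted p = 0.00559), and Vamp4, at 0.25 (SE 0.0407, adjusted p = 0.00458), the early endosome GTPase gene Rab5a at 0.21, Cplx4 at 0.22, the SNARE gene Snap47 at 0.19 and the SNARE adaptor gene Napg at 0.18. Vamp3 and Vamp4, SNAREs of endosomes and the Golgi in many cell types, read 7.28 to 7.39 and 7.49 to 7.51 in Nfix-/- and 7.02 to 7.13 and 7.21 to 7.30 in Nfix+/+, without overlap. They exceeded the negative-control cut on 1 and 3 arrays, Cplx4 and Napg on 0, and Rab5a and Snap47 on all 8.

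How far the 10 rises reach depended on the scaling of the arrays. Subtracting each array's median left 9 of the 10, all but Napb, with 10.8% of all rows and 12.3% of bright rows higher. Cyclic loess, which removes any difference between arrays that follows brightness, left Cplx1, Cplx2 and Doc2b, at 0.21, 0.13 and 0.19 (adjusted p = 0.0252, 0.0467 and 0.0292 from limma), and quantile normalization left Doc2b alone. Of all rows 10.0% were higher after cyclic loess and 8.91% after quantile normalization, and of bright rows 3.24% and 2.54%. After cyclic loess the difference was above 0 in 22 members and not in the other 27, with a median of -0.01. Syngr3 and Syt4 kept a positive difference of 0.13 and 0.12 with an adjusted p of 0.101 and 0.109, and Cplx1 after quantile normalization had 0.20 with an adjusted p of 0.0531. Of the 6 other presynaptic genes Vamp3, Vamp4 and Cplx4 still passed after cyclic loess. Which scaling describes the RNA of these cords was not tested.

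**Figure D3:**
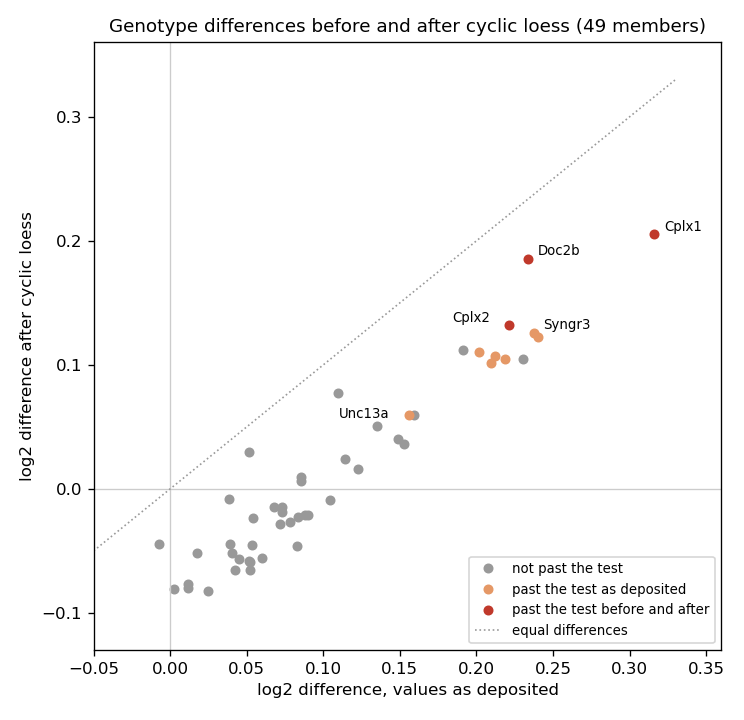
Difference between genotypes (log2, Nfix-/- minus Nfix+/+) of each of the 49 genes in the values as deposited (x axis) and after cyclic loess (y axis), with a dotted line where both are equal. Most genes lie below the line; Cplx1, Cplx2 and Doc2b pass the test on both scales, and 27 genes are not above 0 after cyclic loess.

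Markers of the cells in the cords were read beside these genes. Of 15 neuronal markers, 14 of them above the negative-control cut on all arrays, 4 rose (11.5% of all rows did) and none after cyclic loess, and their mean log2 value was 10.30 to 10.37 in Nfix-/- and 10.18 to 10.24 in Nfix+/+, a median difference of 0.11 over the list. The 10 measured markers of sensory ganglia had a mean of 8.04 to 8.17 in Nfix-/- and 7.50 to 8.04 in Nfix+/+, lowest in replicate 2, and 2 of them rose. Among 15 progenitor markers 1 rose and 1 fell, with means of 8.29 to 8.39 and 8.27 to 8.35. Of 11 measured markers of meninges and fibroblasts 5 rose, with means of 7.96 to 8.11 and 7.81 to 7.89. Of 12 skeletal muscle markers 3 rose and 1 fell, with means of 6.12 to 6.67 and 5.84 to 6.37. On all arrays 9 of the 12 were under the negative-control cut. Beside these counts of each list, 11.5% of all rows were higher and 10.5% lower, and of bright rows 14.1% and 0.416%. The median difference was 0.33 for ganglia, 0.06 for progenitors, 0.14 for meninges and fibroblasts and 0.35 for muscle. Above their equally bright rows lay 7 of 15 neuronal, 10 of 10 ganglion, 6 of 15 progenitor, 9 of 11 meninges and fibroblast and 10 of 12 muscle markers. The part of these cells in the differences of the vesicle genes was not tested. After cyclic loess 0 progenitor markers were higher and 1 lower, 2 of the ganglion markers and 3 of the meninges and fibroblasts were higher, and 1 muscle marker was higher and 1 lower. With that scaling 10.0% of all rows and 3.24% of bright rows were higher. The cord genes Hoxc6, Hoxc8 and Hoxc9 were above the cut on all 8 arrays and the forebrain genes Emx2 and Otx2 on none. Genes of more caudal cord levels varied widely within a genotype. Hoxc10 read 8.97, 8.37, 8.71 and 4.73 in Nfix-/- and 6.64, 7.93, 8.53 and 7.98 in Nfix+/+, and Hoxd10 read 8.33, 7.14, 7.99 and 4.38 in Nfix-/- and 4.91, 6.83, 7.61 and 6.76 in Nfix+/+. Both were lowest in Nfix-/- replicate 4 and Nfix+/+ replicate 1. Hoxd9 was lowest in the same arrays, at 6.44 and 6.98. Without those arrays, left out singly, 7 and 6 of the 49 genes passed, and the part of cord level was not tested.

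Arrays of 1 genotype also differed among themselves. On the 2 arrays that stood apart, the position of the vesicle genes went with the length of the gene, and the other 6 arrays were not examined for it. In Nfix+/+ replicate 2 the members over 300 kb, 10 genes, were higher than the mean of the other 3 Nfix+/+ arrays in 9 cases, with a median of 0.15. Nfix-/- replicate 4 was higher in 10 of the 10, with a median of 0.10, while of the 39 shorter members it was higher in 19 and Nfix+/+ replicate 2 in 18. Pclo, of 349 kb, read 9.39 in Nfix-/- replicate 4, where the rest of that genotype gave 8.92 to 9.22. It read 9.30 in Nfix+/+ replicate 2, where the rest gave 8.92 to 9.08.

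Over the 49 genes, the deviation of an array from the others of its genotype correlated with the log10 of gene span at Pearson's r = 0.53 (Spearman's rho 0.57) for Nfix-/- replicate 4 and 0.60 (0.62) for Nfix+/+ replicate 2. These values run across genes of the same 2 arrays, which are not independent, and are a description. Over 6692 other bright protein-coding genes r was 0.31 and 0.38. The difference between genotypes was hardly related to span (r = -0.11). All 10 genes that rose spanned less than 300 kb, as did 39 of the 49 members. The median difference was 0.085 in those 39 and 0.078 in the 10 members over 300 kb. The cause of the relation to span was not tested.

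**Figure D4:**
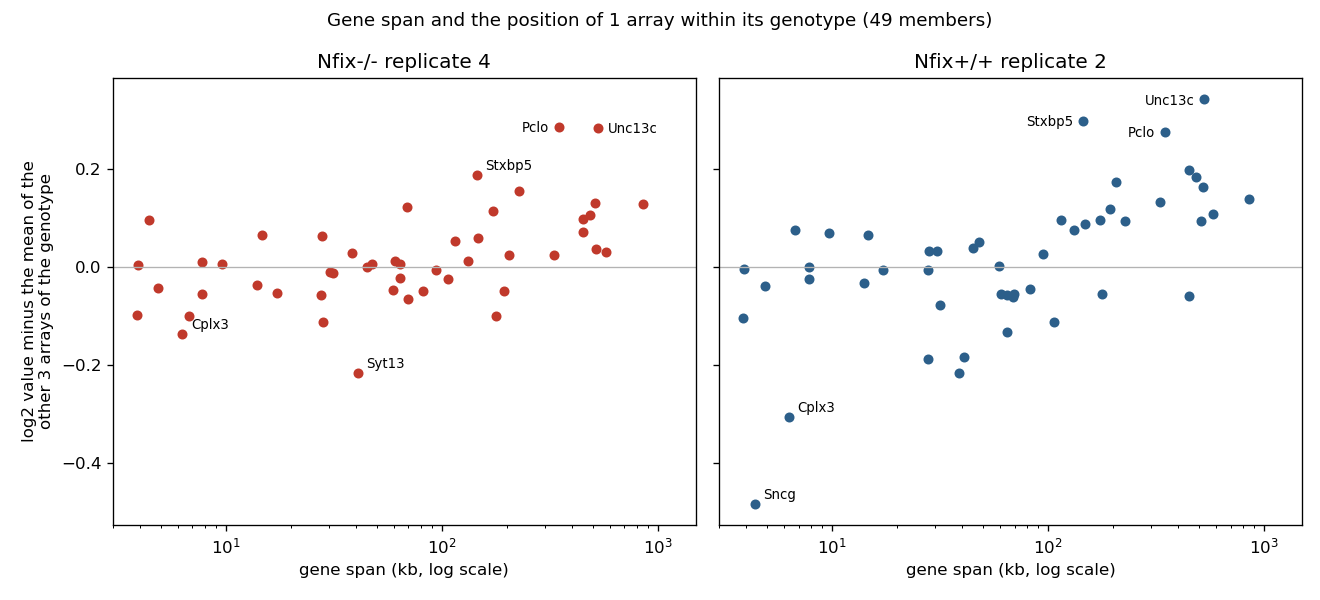
Log2 value on 1 array minus the mean of the other 3 arrays of its genotype (y axis) against the length of the annotated gene (x axis, kb, log scale) for the 49 genes, with Nfix-/- replicate 4 on the left and Nfix+/+ replicate 2 on the right. Long genes such as Pclo and Unc13c lie high on both arrays, and Sncg and Cplx3 lie low in Nfix+/+ replicate 2.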

How the data were processed

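The deposited values were log2 signals, 1 per row and array, which the authors made from the scanner files of all samples with the Affymetrix Expression Console (gene-level SST-RMA), with mm10 as the genome build. They were used without further scaling. Of 72688 rows 6732 were control probe sets, which left 65956. Of these 30638 carried 1 symbol in the platform annotation, 2176 several and 33142 none, and rows with several were not used for genes. Gene positions and promoters came from RefSeq (GRCm38.p6).

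Genotypes were compared by an unpaired, two-sided limma fit (version 3.58.1, under R 4.3.3) with Benjamini-Hochberg adjustment over all 65956 rows. Signal over background was judged by the 95th percentile of 5222 negative controls. The methods required a fold change over 1.5 as well, which was an alternative here. Members, marker lists and other presynaptic genes were chosen with earlier results of these data known. Genes named with values were those past the adjusted p, the brightest of each role, the 3 most negative differences, the 3 largest that did not pass and the called genes of the other list. Syt1, Cplx3, Syngr1, Syp, Erc2 and Pclo and the caudal Hox genes were added after their values were seen. Some genes of the lists are not reported here. Alternatives covered scaling, the test and its prior, array weights, a replicate block, dim rows and each array left out.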

Additional observations from a re-analysis of the deposited data

Results flagged for a closer look

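In 7 of 98 groups of 4 arrays, 1 for each gene and genotype, 1 array lay far from the other 3. Chance gives this in about 1 group in 20. Sncg, the gamma-synuclein gene, did so in both genotypes, at 10.49 in Nfix+/+ replicate 2 against 10.93 to 11.02 in the others, and at 10.90 in Nfix-/- replicate 3 against 11.11 to 11.16. Stx1a read 8.46 in Nfix+/+ replicate 2 against 8.64 to 8.66. In Nfix-/- replicate 3, Syt2 read 7.83 against 7.74 to 7.75 and Sv2a read 9.29 against 9.19 to 9.20. In Nfix-/- replicate 1, Cadps2 read 6.23 against 6.35 to 6.37 and Rims1 read 8.25 against 8.32 to 8.34. None of these 6 genes passed the test between genotypes.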

How the results depend on the processing

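Of the 49 genes 10 were higher, and 0 were under a fold change over 1.5, 1 after quantile normalization, 3 after cyclic loess and 5 to 9 with each array left out in turn, fewest without Nfix+/+ replicate 3. Without Nfix-/- replicate 2, Nfix-/- replicate 3 or Nfix+/+ replicate 1 there were 6. Cplx1, Cplx2, Syngr3, Syt4 and Doc2b passed in all 8 of those fits, Syt11 and Syn2 in 5, Amph in 2 and Unc13a and Napb in 1. Counts by the methods' t-test (13, of which 8 were among the 10), a trended robust prior (11), array weights (12), median scaling (9) and without dim rows (10, of which 9 were shared, Doc2b not being tested) stayed within 1.5 times. Leaving out both arrays that stand apart, chosen after seeing the data, gave 9. The share of all rows that passed was counted only for the main fit, the fold cut-off and the scalings. Counts from the other fits have no such share beside them. The members' median, 0.08, was 0.11 after median scaling, -0.0095 after quantile normalization, -0.014 after cyclic loess and 0.072 to 0.10 with an array left out. Their median beyond equally bright rows, -0.01, was 0.013 with array weights and ran from -0.019 to 0.017 with an array left out, highest without Nfix-/- replicate 1.

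Of the other presynaptic genes 6 were higher, and 3 were after quantile normalization, 3 after cyclic loess, 12 by the methods' t-test, 11 with array weights and 0 under a fold change over 1.5. Their median, 0.10, was 0.12 after median scaling, 0.020 after quantile normalization, 0.011 after cyclic loess and 0.083 to 0.098 with an array left out.

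The deviations of same-numbered arrays correlated at 0.47, -0.15, 0.04 and -0.08. Higher values joined Nfix-/- replicate 4 with Nfix+/+ replicate 2 (0.66) and Nfix-/- replicate 1 with Nfix+/+ replicate 3 (0.59). The numbers were not taken as pairs. With the replicate block 6 members were higher, Syt4, Syt11, Doc2b, Cplx1, Cplx2 and Syngr3.

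Signs are listed here only for the brightest of each role, the 3 most negative differences and the 3 largest that did not pass. Of these, the ones that did not pass and changed sign after quantile normalization and cyclic loess were Snap25 (-0.067 and -0.046), Cadps (-0.011 and -0.0093), Rab3c (-0.037 and -0.065), Syn1 (-0.030 and -0.056), Dnm1 (-0.026 and -0.021), Vamp1 (-0.075 and -0.081) and Rab3a (-0.074 and -0.080). Other members changed sign too, since 27 of the 49 were not above 0 after cyclic loess, where 1 was not as deposited. Synpr changed to 0.021 after median scaling, 0.015 with array weights and 0.019 without both arrays. With an array left out Synpr ran from -0.031 to 0.026 and Vamp1 from -0.032 to 0.028. The cause was not tested. Brightness limits Doc2b, Cplx3, Unc13c, Cadps2 and Synpr, which were under the negative-control cut on all arrays.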
